A study of Mus musculus with 32 samples.

Results

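The 10 genes described here are the 3 genes of the oxygen-regulated subunits of the hypoxia-inducible factors (Hif1a, Epas1 and Hif3a) and 7 genes of the hypoxia response (Egln3, Slc2a1, Aldoc, Pdk1, Bnip3, Ndrg1 and Ankrd37). They were chosen by name, with earlier results of these data known, and each was represented by the brightest of its probe sets, on the mean of the 32 arrays. All 10 were among the 13345 genes tested, of 18193 genes with a probe set. Egln3 was above the median of all values (100.4 signal units) on 25 of 32 arrays, Ankrd37 on 31, and the other 8 on every array.

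A hypoxia-inducible factor is a pair of proteins, an oxygen-regulated alpha subunit and a constant partner (Arnt, also called HIF-1 beta). When oxygen is plentiful, prolyl hydroxylases of the Egln family mark the alpha subunit for destruction through the von Hippel-Lindau protein; when oxygen is low, the subunit persists, enters the nucleus and switches on genes for glucose uptake, glycolysis and the trimming of mitochondria. The alpha subunits are controlled largely at the level of the protein, so their mRNA need not follow oxygen. Epas1 encodes HIF-2 alpha, abundant in lung endothelium and alveolar type 2 cells, and the lung passes at birth from the low oxygen of the womb to air.

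The arrays came from mice of the label C3H/HeN that were either wild type (WT) or knockout (KO) for Gsr, the gene of glutathione reductase, the enzyme that regenerates reduced glutathione. The labels do not name the knockout allele. Groups were WT and KO embryos at embryonic day 19 (E19, 4 arrays per genotype), and WT and KO pups kept with their dams from postnatal day 0 to 5 in room air or in 100% oxygen (hyperoxia), with lungs taken at postnatal day 5 (P5) or, after the exposure had ended, at postnatal day 56 (P56), 3 arrays for each of these 8 groups. Each of the 32 Affymetrix Mouse 430_2 arrays held RNA from part of the lung of 1 mouse, and the values are the MAS5 signals that the authors deposited, in arbitrary units. The E19 lung was in the womb, so the E19 to P5 comparison carries the change of oxygen together with all other changes of birth and of the first days, which cannot be told apart here.

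Gsr itself was lower in KO than in WT lungs in every condition, with group means of 633 to 1289 for WT lungs and of 154 to 226 for KO lungs. Its log2 change was between -1.80 and -2.38 in the 5 genotype comparisons, with no overlap between genotypes. All 7 markers of alveolar type 1 cells and the 7 tested of 8 markers of type 2 cells stood above the median of all values on every array. Several arrays stood apart from their groups, and results that rest on them are given with and without them. Over 13280 genes outside the hypoxia lists, the array labelled KO P5 air replicate 1 was closest to KO E19 replicate 2 (r = 0.976, against 0.962 with its own group). WT E19 replicate 1, left out only among the alternative fits described below, was closest to KO P5 air replicate 1 (0.973, against 0.936 with its own group). WT P5 air replicate 3 was closest to WT P5 hyperoxia replicate 3 (0.986, against 0.981). KO P5 hyperoxia replicate 1 was about equally close to KO P5 air replicate 3 and to its own group (0.982 for both). Cdkn1a, a p53 target, read 6352 on WT P5 air replicate 3 against 848 and 840 on the other arrays of that group, and 1296 on KO P5 hyperoxia replicate 1 against 8384 and 8155. The 3′ to 5′ log2 ratio of the control probe sets rises with RNA breakdown. It was 4.37 on KO E19 replicate 1 and 2.84 on WT P56 hyperoxia replicate 2, against -0.06 to 1.55 elsewhere. Within that range it also separated some compared groups. It was -0.06 to 0.20 in WT E19 against 0.32 to 0.43 in WT P5 air lungs. At P56 in air it was 0.21 to 0.36 in WT against 0.68 to 1.05 in KO lungs. Its part in the differences between these groups was not tested.

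HIF binds DNA at a short core, ACGTG or GCGTG, called the hypoxia response element. Promoters from RefSeq (GRCm38.p6) were matched for 8 of the 10 genes; Epas1 and Ndrg1 had no entry in the table. Over windows of 300 bases, from 250 before to 50 after the start of transcription, both strands were searched for the 2 cores, and each of the 8 matched genes held at least 1 (9 of 10 start sites). ACGTG was in the windows of 6 of these genes and GCGTG in those of 6, while 19.6% of all 32851 such promoters held ACGTG, 32.4% held GCGTG and 43.8% held either. No allowance was made for base composition, and a match is a match of letters only. The 250 bases before the start are shown for the 2 subunits with an entry and for 4 response genes whose levels carry the results below, so that the number and spacing of the cores can be seen. They are written 5′ to 3′ on the gene's strand, with every core on either strand in capitals (CACGT and CACGC are the cores read on the other strand).
Ankrd37, chr8:45999851-46000100, minus strand: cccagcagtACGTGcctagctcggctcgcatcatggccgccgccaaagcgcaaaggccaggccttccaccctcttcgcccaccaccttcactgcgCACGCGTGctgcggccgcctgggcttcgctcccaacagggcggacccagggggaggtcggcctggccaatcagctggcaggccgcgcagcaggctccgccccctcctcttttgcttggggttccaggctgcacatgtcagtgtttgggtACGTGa
Egln3, chr12:54203875-54204124, minus strand: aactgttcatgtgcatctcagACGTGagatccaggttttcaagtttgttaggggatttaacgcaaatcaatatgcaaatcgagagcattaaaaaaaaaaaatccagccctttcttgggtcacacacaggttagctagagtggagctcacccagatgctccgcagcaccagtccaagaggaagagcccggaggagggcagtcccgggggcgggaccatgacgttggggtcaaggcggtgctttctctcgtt
Bnip3, chr7:138909507-138909756, minus strand: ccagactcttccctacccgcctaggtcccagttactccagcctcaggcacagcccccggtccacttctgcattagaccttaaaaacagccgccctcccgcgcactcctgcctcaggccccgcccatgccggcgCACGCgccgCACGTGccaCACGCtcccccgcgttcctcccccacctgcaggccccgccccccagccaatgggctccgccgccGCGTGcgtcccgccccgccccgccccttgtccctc
Slc2a1, chr4:119108495-119108744, plus strand: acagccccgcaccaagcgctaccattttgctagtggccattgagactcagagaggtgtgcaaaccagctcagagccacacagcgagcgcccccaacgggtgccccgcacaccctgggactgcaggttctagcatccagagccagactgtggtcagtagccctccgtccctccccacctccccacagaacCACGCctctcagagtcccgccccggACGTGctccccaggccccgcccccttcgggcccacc
Hif1a, chr12:73907617-73907866, plus strand: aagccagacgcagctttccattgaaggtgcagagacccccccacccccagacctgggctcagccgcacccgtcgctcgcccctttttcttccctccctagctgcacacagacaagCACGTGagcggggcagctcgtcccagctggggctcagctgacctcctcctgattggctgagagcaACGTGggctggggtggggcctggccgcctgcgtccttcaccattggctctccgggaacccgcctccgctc
Hif3a, chr7:17062428-17062677, minus strand: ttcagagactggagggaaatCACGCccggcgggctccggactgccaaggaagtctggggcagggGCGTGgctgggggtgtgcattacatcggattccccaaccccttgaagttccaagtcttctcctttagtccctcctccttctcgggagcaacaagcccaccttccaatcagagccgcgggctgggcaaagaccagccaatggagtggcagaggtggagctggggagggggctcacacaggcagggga
Ankrd37 held ACGTG at the far end of the window and again 6 bases before the start, with GCGTG on both strands between them in 1 run (CACGCGTG). Bnip3 held 5 cores, 2 of them the strands of a single CACGTG that begins 108 bases before the start. Egln3 held 1 core, ACGTG at 229 bases before the start, and Slc2a1 held 1 of each kind, at 36 and 61 bases before it. Hif1a held 3 ACGTG cores, 2 of them the strands of 1 CACGTG, and Hif3a held GCGTG only. The start sites printed for Hif1a and Ankrd37 lie inside the outer bounds of the annotated genes, so each has a further start upstream.

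Across the 10 groups, Hif3a and the 7 response genes had their 2 highest group means at E19, 1 in each genotype. Hif1a had its highest mean in KO E19 lungs but not its next highest in WT E19 lungs, and Epas1 had its lowest mean in WT E19 lungs. Without KO P5 air replicate 1, Hif3a and each of the 7 response genes read higher on all 8 E19 arrays than on all 23 postnatal arrays. The ratio of the E19 median to the postnatal median was then 10.04 for Hif3a, 7.86 for Egln3, 7.03 for Ankrd37, 5.05 for Ndrg1, 3.81 for Slc2a1, 3.17 for Aldoc, 2.72 for Bnip3 and 2.65 for Pdk1. With that array included, only Bnip3 remained apart, and by a narrow gap: 5818 on that array against 6003 on the lowest E19 array. The ratio for Hif1a was 1.07, and for Epas1, which ran the other way, 0.569.

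**Figure D1:**
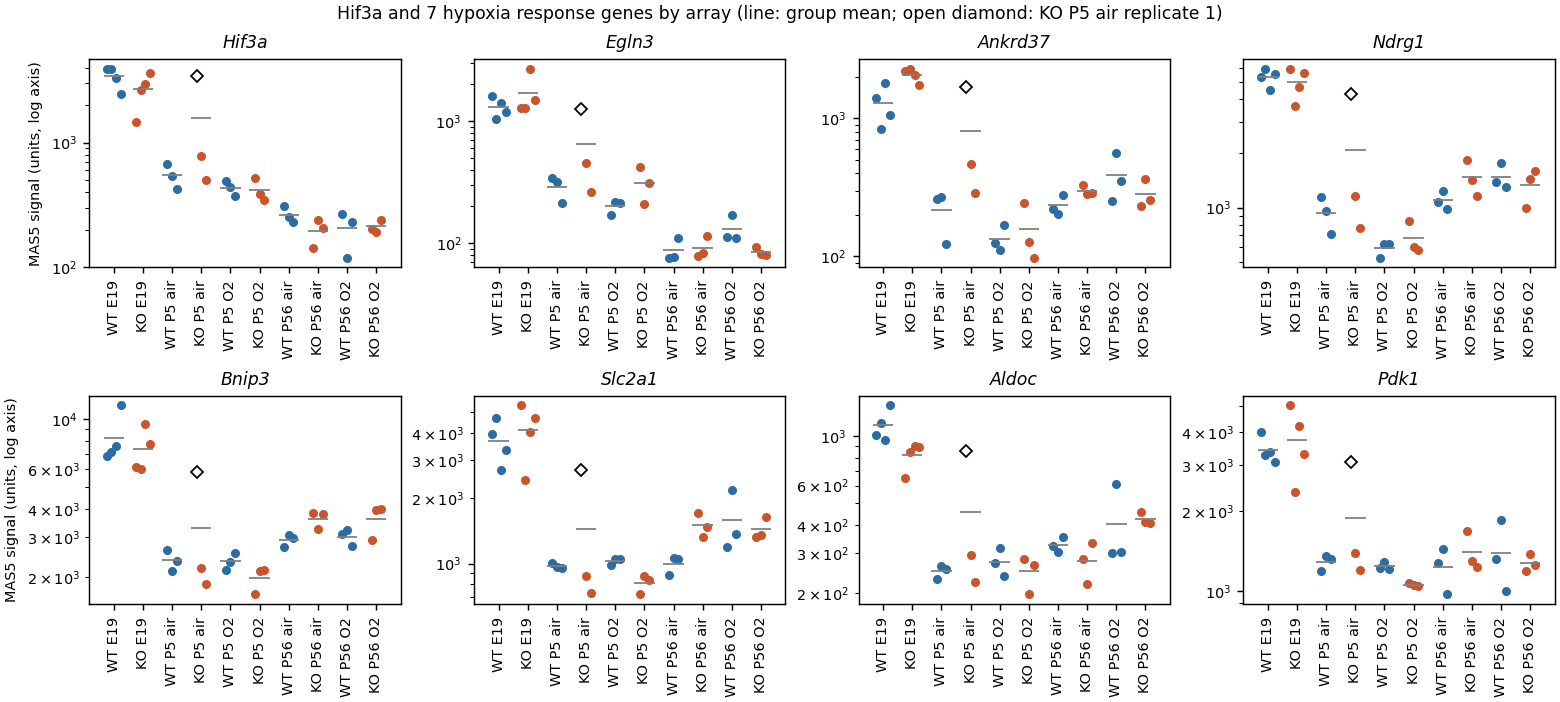
MAS5 signal on a log axis for Hif3a and the 7 response genes in the 10 groups (E19, P5 and P56; "O2" is hyperoxia from P0 to P5), with 1 point per array, WT in blue, KO in orange and the group mean as a line. The open diamond is KO P5 air replicate 1, which lies among the E19 arrays in 7 of the 8 panels (Bnip3, at 5818, is just below them), while the other 23 postnatal arrays lie below all E19 arrays.

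Hif1a, the subunit of HIF-1, was one of the steadiest of the genes. Its WT group means ran from 4404 ± 281 (SD, n = 3) at P56 in air through 5096 ± 442 (n = 4) at E19 to 5886 ± 478 (n = 3) at P5 in air, with 5827 ± 350 and 5193 ± 954 after hyperoxia at P5 and P56. KO means were 7123 ± 1973 at E19, 5998 ± 196 and 5764 ± 119 at P5 in air and hyperoxia, and 4787 ± 275 and 5071 ± 548 at P56. In the order of the 10 means, from KO E19 down to WT P56 air, every neighbouring pair of groups overlapped.

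Epas1, the subunit of HIF-2, had its lowest level in WT E19 lungs, with a mean of 7557 ± 1786 (SD, n = 4) against 13874 ± 2139 in KO E19 lungs. In WT lungs it stood at 16654 ± 1926 and 17760 ± 1360 at P5 in air and hyperoxia, and at 18271 ± 1221 and 20074 ± 1796 at P56. In KO lungs the same 4 means were 15162 ± 2612, 16099 ± 1448, 23882 ± 1323 and 22160 ± 2999. WT E19 was the only group whose range did not overlap that of its neighbour in the order; the other 9 overlapped pairwise down from KO P56 air to KO E19.

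**Figure D2:**
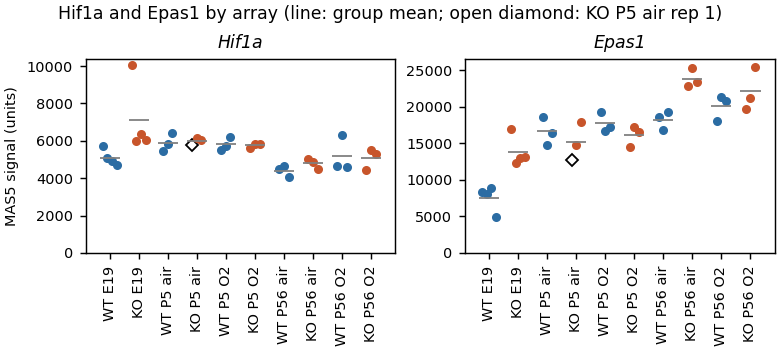
MAS5 signal on a linear axis from 0 for Hif1a and Epas1 in the 10 groups, 1 point per array and a line at each group mean. Hif1a means lie between 4404 and 7123 with 1 array at 10075 (KO E19 replicate 1), and the 4 WT E19 arrays of Epas1, at 4925 to 8891, lie below all other arrays.

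Hif3a, whose protein products include forms that restrain the other 2 subunits, stood in 3 tiers by age when KO P5 air was left aside, the group whose mean of 1560 ± 1601 (SD, n = 3) held 1 reading of 3402 within the E19 range. Its other means were 3390 ± 689 (SD, n = 4) and 2675 ± 893 in WT and KO lungs at E19, 545 ± 121 in WT lungs at P5 in air, and 435 ± 58.8 and 418 ± 91.9 in WT and KO lungs at P5 in hyperoxia. The P56 means were all lower, at 264 ± 42.7 and 206 ± 78.1 in WT and 196 ± 48.8 and 213 ± 25.5 in KO lungs (air, then hyperoxia). Egln3, the prolyl hydroxylase that is itself induced by HIF, showed the same 3 tiers: 1303 ± 240 and 1681 ± 674 at E19, 201 ± 26.1 to 313 ± 104 in the P5 groups other than KO air, and 85.2 ± 7.83 to 131 ± 34.1 at P56, where the readings were near the median of all values. For both genes the range of the lowest P5 group did not overlap that of the highest P56 group. For Egln3 the gap was very narrow, with 171.07 on the lowest WT P5 hyperoxia array against 170.84 on the highest WT P56 hyperoxia array.

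The other response genes had 2 tiers, with P5 and P56 overlapping for most. Excluding KO P5 air, the postnatal means of Slc2a1 ranged from 812 to 1586 against 3689 ± 859 and 4139 ± 1261 at E19 (WT, KO; SD, n = 4), and those of Pdk1 from 1057 to 1406 against 3414.5 ± 398 and 3724 ± 1155. Aldoc ranged from 248.6 to 427 against 1118 ± 185 and 822 ± 118, and it was the only one of these genes for which the 2 E19 groups did not overlap. Bnip3 ranged from 1995 to 3631 against 8293 ± 2179 and 7353 ± 1649, and its P5 groups lay below its P56 groups once KO P5 air replicate 1 was left out. Ndrg1 ranged from 593 to 1482 against 5332 ± 595 and 4983 ± 1021, with its lowest means at P5 in hyperoxia. Ankrd37 ranged from 135 to 388 against 1288 ± 428 and 2074 ± 240, and it too was lowest at P5 in hyperoxia.

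The change from E19 to P5 in air was fitted with limma on log2(signal + 26.3) in a single model of the 10 groups, with p-values adjusted (Benjamini-Hochberg) over all 13345 genes. In WT lungs 8 of the 10 genes fell and 1, Epas1, rose, with no overlap between the ages for any of the 9. Over all genes tested, 14.6% passed the test in this comparison (6.23% fell and 8.36% rose), and 29.5% had groups that did not overlap. The median change was -1.95 over the 10 genes and 0.01 over all genes. In bulk lung RNA, fewer cells of a type and less RNA per cell cannot be told apart. The 3′ to 5′ ratio of these arrays also differed by age without overlap (-0.06 to 0.20 at E19, 0.32 to 0.43 at P5).

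Among the subunits, the 4 WT E19 arrays of Hif3a read 3923, 3899, 3277 and 2458, and the 3 WT P5 air arrays 667, 542 and 424. Every E19 array was well above every P5 array, and the log2 change was -2.58 (SE 0.39, limma adjusted p = 9.67e-05). Epas1 read 8290, 8123, 8891 and 4925 at E19 and 18678, 14843 and 16440 at P5. Here the E19 arrays were all below the P5 arrays, and the log2 change was 1.17 (SE 0.16, limma adjusted p = 2.51e-05). Hif1a read 5708, 5098, 4898 and 4680 at E19 and 5446.5, 5816 and 6395 at P5. The ages overlapped, and its log2 change of 0.21 (SE 0.14, 95% interval -0.08 to 0.50) did not pass (limma adjusted p = 0.361).

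Egln3 read 1587, 1040, 1401 and 1184 in WT lungs at E19 and 340, 316 and 214 at P5 in air. All 4 embryonic readings were above 1000 and none at P5 reached 400, a log2 change of -2.08 (SE 0.32, limma adjusted p = 0.000127). Slc2a1, which encodes the glucose transporter GLUT1, read 3966, 4724, 2715 and 3350 at E19 and 1008, 964 and 955 at P5. The P5 arrays were close to each other and far below the embryonic arrays, with a log2 change of -1.86 (SE 0.30, limma adjusted p = 0.000161).

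The metabolic enzymes moved the same way. Aldoc, an aldolase of glycolysis, read 1006, 1143, 956 and 1369 at E19 and 230, 262 and 255 at P5, so that the ages were clearly apart. Its log2 change was -2.05 (SE 0.28, limma adjusted p = 3.15e-05). Pdk1, the kinase that holds pyruvate back from oxidation in the mitochondria, read 3986, 3265, 3341 and 3067 and then 1193, 1352 and 1319. It had the smallest change of the 8 genes that fell, at -1.38 (SE 0.25, limma adjusted p = 0.000438).

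Bnip3, a receptor that marks mitochondria for removal, read 6866, 7170, 7605 and 11529 in WT lungs at E19 and 2640, 2140 and 2360 at P5 in air. One embryonic array was well above the other 3, and all 4 were above P5, with a log2 change of -1.76 (SE 0.25, limma adjusted p = 4.82e-05). Ndrg1, a long-known hypoxia-induced gene, read 5318, 5933, 4524 and 5553 and then 1142, 957 and 708, well separated, with a change of -2.50 (SE 0.33, limma adjusted p = 2.47e-05). Ankrd37, an ankyrin-repeat protein gene known as a HIF-1 target, read 1416, 845, 1824 and 1067 and then 261, 269 and 124. Its embryonic arrays varied more among themselves but none came near P5, and the change was -2.44 (SE 0.38, limma adjusted p = 0.000141).

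In KO lungs the same comparison gave smaller changes, and 7 of the 10 genes fell, beside 3.45% of all genes called (1.24% fell and 2.21% rose). With all arrays the log2 changes were -1.70 for Slc2a1 (SE 0.30, limma adjusted p = 0.00994), -1.70 for Ankrd37 (SE 0.38), -1.62 for Ndrg1 (SE 0.33), -1.54 for Egln3 (SE 0.32), -1.32 for Bnip3 (SE 0.25), -1.04 for Pdk1 (SE 0.25) and -1.02 for Aldoc (SE 0.28, limma adjusted p = 0.0403). Hif3a changed by -1.18 (SE 0.39) and did not pass (limma adjusted p = 0.0822), nor did Hif1a (-0.21) or Epas1 (0.13). Only Ankrd37, Bnip3 and Egln3 had groups that did not overlap, beside 6.87% of all genes (1.72% lower).

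The array labelled KO P5 air replicate 1 set the size of these changes. On it Ndrg1 read 4309, against 1162 and 770 on the other KO P5 air arrays and 3670 to 5945 on the 8 E19 arrays. Hif3a read 3402, against 780 and 498, and Ankrd37 read 1689, against 467 and 286. Of its 10 readings, 9 lay within the E19 range, Bnip3 being the exception, and 8 of 10 were above each of the other 23 postnatal arrays. The ratio of this array to the mean of the other 2 ran from 2.37 for Pdk1 to 5.32 for Hif3a among those 8 genes, while it was 0.946 for Hif1a and 0.783 for Epas1.

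Without that array, 8 of the 10 genes fell between E19 and P5 air in KO lungs, Hif3a among them at -1.98 (SE 0.30, limma adjusted p = 7.44e-05, which was between 4.91e-05 and 0.779 over 19 alternatives). Ankrd37 then changed by -2.41 (SE 0.33), Ndrg1 by -2.34 (SE 0.24), Slc2a1 by -2.27 (SE 0.24), Egln3 by -2.13 (SE 0.28), Bnip3 by -1.82 (SE 0.19), Aldoc by -1.57 (SE 0.22) and Pdk1 by -1.45 (SE 0.23). All were larger than with the array in place, and 1567 genes in all were called in place of 461. Leaving out KO P5 air replicate 2 or replicate 3 instead, which keeps replicate 1, left none of the 10 genes called. Without KO E19 replicate 1, 8 genes fell.

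**Figure D3:**
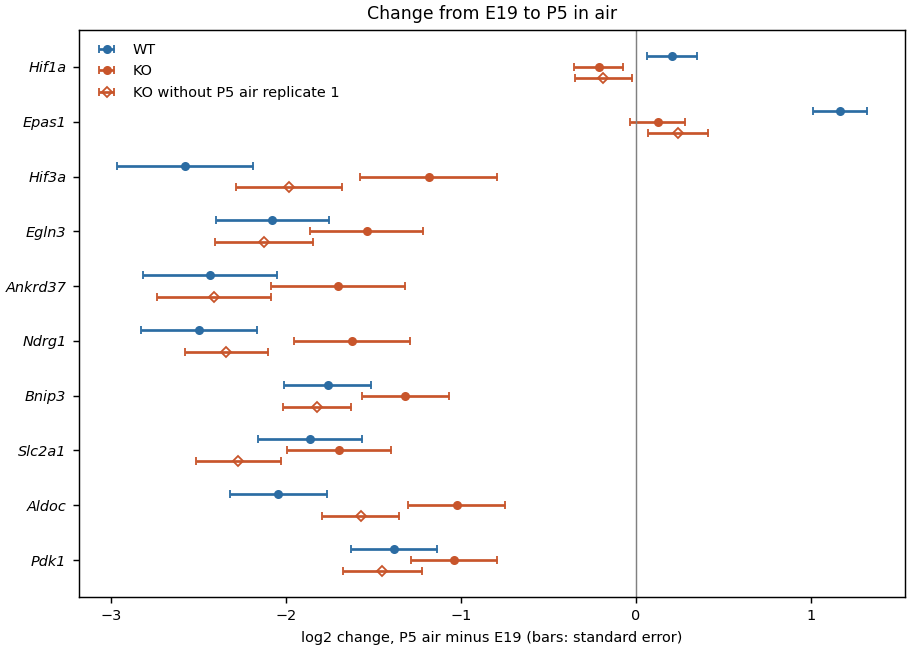
Log2 change from E19 to P5 in air for the 10 genes, with bars of 1 SE, for WT lungs, KO lungs and KO lungs without replicate 1 of the P5 air group. In WT lungs 8 genes lie between -1.38 and -2.58 and Epas1 at 1.17; in KO lungs without that array the same 8 lie between -1.45 and -2.41, while Epas1 is at 0.24.

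Whether the birth change differed between genotypes was tested as the KO change minus the WT change. Epas1 was the 1 member called, at -1.04 (SE 0.22, 95% interval -1.49 to -0.59, limma adjusted p = 0.0386), beside 0.187% of all genes called (0.135% lower): it rose in WT lungs and moved by 0.13 in KO lungs. This call did not survive the loss of any of several arrays, although the size held: -0.94 without KO E19 replicate 1 (limma adjusted p = 0.0689), -0.93 without KO P5 air replicate 1 (0.120) and -1.05 without WT P5 air replicate 3 (0.106), in a range of 0.00608 to 0.869 over 27 alternatives. Without WT E19 replicate 1, 330 genes in all were called in this comparison, against 25 with all arrays. With all arrays, the differences for Hif3a (1.39), Aldoc (1.02), Ndrg1 (0.87) and Ankrd37 (0.73) did not pass. Without KO P5 air replicate 1 they were 0.60, 0.47, 0.16 and 0.02, and the median over the 10 genes went from 0.49 to -0.05.

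At E19, 2 of the 10 genes were higher in KO lungs, Epas1 and Hif1a, and the Hif1a call rested on 1 array. This count stands beside 15.2% of all genes called (6.95% higher, 8.28% lower), so its share is near that of all genes. In 3 of the 10 genes the genotypes did not overlap (2 higher, 1 lower), beside 10.1% of all genes (4.50% higher, 5.63% lower). Of the called genes over the whole array 45.6% were higher in KO; this share became 59.6% after quantile normalization, 82.1% after centring on array medians and 63.2% after centring on the medians of the tested genes. These scalings moved the changes at E19 by 0.13, 0.28 and 0.13 at the median gene.

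Epas1 read 17038, 12320, 13006 and 13134 on the KO E19 arrays, against 8290, 8123, 8891 and 4925 on the WT E19 arrays. Every KO embryo was above every WT embryo, with a log2 change of 0.90 (SE 0.14, 95% interval 0.60 to 1.19, limma adjusted p = 0.000219), or 1.86-fold. It remained at 0.80 (SE 0.15, limma adjusted p = 0.000963) without KO E19 replicate 1, in a range of 7.83e-05 to 0.136 over 19 alternatives. Hif1a read 10075, 6013, 6340 and 6065 in KO and 5708, 5098, 4898 and 4680 in WT embryos. The genotypes did not overlap, but the highest KO reading was that of the array with the high 3′ to 5′ ratio. Its change of 0.45 (SE 0.13, limma adjusted p = 0.0201) became 0.27 (SE 0.10, limma adjusted p = 0.0888) without that array and was not called, in a range of 0.00724 to 0.362 over 19 alternatives.

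Cell type markers moved beside Epas1. The level of the 10 endothelial markers (the mean of their log2 levels, each gene set to 0 at its average over the 32 arrays) was -1.12 to -0.39 in WT E19 lungs, -1.25 to 0.04 in KO E19 lungs and 0.00 to 0.13 in WT P5 air lungs, with summed signals of 23254 to 36178, 28361 to 48075 and 49578 to 53766. The 7 alveolar type 1 markers stood at -0.82 to -0.45 in the WT embryos and at -0.21 to 0.08 in the KO embryos, and the 7 tested of 8 alveolar type 2 markers at -0.80 to -0.31 and at -0.48 to 0.13. The 9 tested of 10 liver markers ranged from -0.22 to 6.33 among the WT embryos and from -2.04 to 1.29 among the KO embryos. The 7 tested of 8 mitosis markers stood at 1.14 to 1.70 in the WT embryos and at -0.45 to 0.53 in the KO embryos, without overlap. Their summed signals were 9199 to 13520 and 3461 to 6060. None of these lists had a marker below the median of all values on every array of either group. The 7 squamous epithelium markers stood at -0.16 to 3.01 in the WT embryos and at -0.60 to -0.34 in the KO embryos, without overlap. Of these, 5 were below that median on every KO E19 array. The 7 tested of 8 erythroid markers stood at -0.34 to 3.11 in the WT and at -0.51 to 0.03 in the KO embryos. The part of all these markers in the Epas1 difference was not tested.

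No response gene passed the test between the genotypes at E19. Aldoc read lower in KO embryos (648, 844, 904 and 890, against 1006, 1143, 956 and 1369), and although the genotypes did not overlap, the change of -0.43 (SE 0.26, 95% interval -0.96 to 0.10) did not pass (limma adjusted p = 0.255). Ankrd37, 12.3 Mb from Gsr on chromosome 8, read 2192, 2303, 2051 and 1750 in KO and 1416, 845, 1824 and 1067 in WT embryos. One WT array lay above the lowest KO array, and the change of 0.73 (SE 0.35) did not pass (limma adjusted p = 0.163). Egln3 (0.31), Slc2a1 (0.14), Pdk1 (0.08), Ndrg1 (-0.11), Bnip3 (-0.17) and Hif3a (-0.39) did not pass, and the sign of 4 of them (Bnip3, Ndrg1, Pdk1 and Slc2a1) turned with the scaling.

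After 5 days of hyperoxia, 1 of the 10 genes, Ankrd37, passed the test against air at P5 in KO lungs, and none did in WT lungs. In WT lungs at P5 none of the 10 genes was called, beside 0.00749% of all genes called (1 gene; 409 genes had an unadjusted p below 0.05). Ndrg1 read 524, 630 and 626 in hyperoxia against 1142, 957 and 708 in air. All hyperoxia arrays lay below all air arrays, with a log2 change of -0.61 (SE 0.35, 95% interval -1.34 to 0.11, limma adjusted p = 0.9998). It was the only one of the 10 without overlap, beside 17.2% of all genes (9.89% lower).

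Ankrd37 in WT lungs read 124, 110 and 169 in hyperoxia and 261, 269 and 124 in air, and changed by -0.55 (SE 0.41). The overlap came from WT P5 air replicate 3, the air array whose Cdkn1a stood at the hyperoxia level. Egln3 changed by -0.46 (SE 0.35) and Hif3a by -0.29 (SE 0.42), and the other 6 genes by -0.05 to 0.12. Without that air array the changes were -0.87 for Ankrd37, -0.80 for Ndrg1, -0.64 for Egln3 and -0.45 for Hif3a, and none of the 10 genes was called. The 9 tested of 10 liver markers stood at 2.33 to 4.42 in WT P5 air and at -0.12 to 1.33 in WT P5 hyperoxia lungs. Their summed signals were 22564 to 70621 and 3918 to 11721. In KO P5 air lungs they stood at -2.07 to 0.08. The 7 squamous epithelium markers stood at -0.20 to 2.54 in WT P5 air and at -0.68 to -0.35 in WT P5 hyperoxia lungs. Their summed signals were 558 to 9673 and 343 to 512. In hyperoxia 6 of the 7 were below the median of all values on every WT array. The part of these liver and squamous markers in the P5 differences was not tested.

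In KO lungs Ankrd37 was lower in hyperoxia, the 1 gene of the 10 that was called, beside 0.345% of all genes called (0.00749% lower, which is Ankrd37 alone). It read 245, 128 and 97.4 in hyperoxia and 1689, 467 and 286 in air. The groups did not overlap, and the log2 change was -1.89 (SE 0.41, 95% interval -2.73 to -1.05, limma adjusted p = 0.0305). Without KO P5 air replicate 1 the change was -1.18 (SE 0.34) and was not called (limma adjusted p = 0.397). Without KO P5 hyperoxia replicate 1, whose Cdkn1a stood at the air level, it was -2.22 (limma adjusted p = 0.0161), and without both of these and WT P5 air replicate 3 it was -1.51 (SE 0.32, limma adjusted p = 0.0245). The adjusted p ranged from 9.63e-06 to 0.594 over 19 alternatives, and 6 of them ended the call.

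Pdk1 was the other gene without overlap in KO lungs, at 1077, 1050 and 1044 in hyperoxia against 3081, 1397 and 1201 in air, beside 15.3% of all genes without overlap (8.07% lower). Its change of -0.70 (SE 0.26, limma adjusted p = 0.587) was -0.29 without KO P5 air replicate 1. The changes of Hif3a (-1.37), Ndrg1 (-1.21), Egln3 (-0.77), Aldoc (-0.60), Slc2a1 (-0.56) and Bnip3 (-0.53) did not pass either. Without that array they were -0.57, -0.49, -0.18, -0.05, 0.01 and -0.03, and the median over the 10 genes went from -0.65 to -0.13. Hif1a (-0.06) and Epas1 (0.10) differed little in either fit.

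Other tissue markers also differed between these groups. The 10 striated muscle markers stood at 2.07 to 2.45 in KO hyperoxia and at -0.74 to 0.47 in KO air lungs, with summed signals of 21042 to 26550 and 8145 to 17667, and the 7 squamous epithelium markers at 2.25 to 2.80 and -0.67 to -0.15, with summed signals of 6327 to 10935 and 349 to 1035. Of these, 5 muscle and 5 squamous markers were below the median of all values on every KO air array. Their part in the Ankrd37 difference was not tested.

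**Figure D4:**
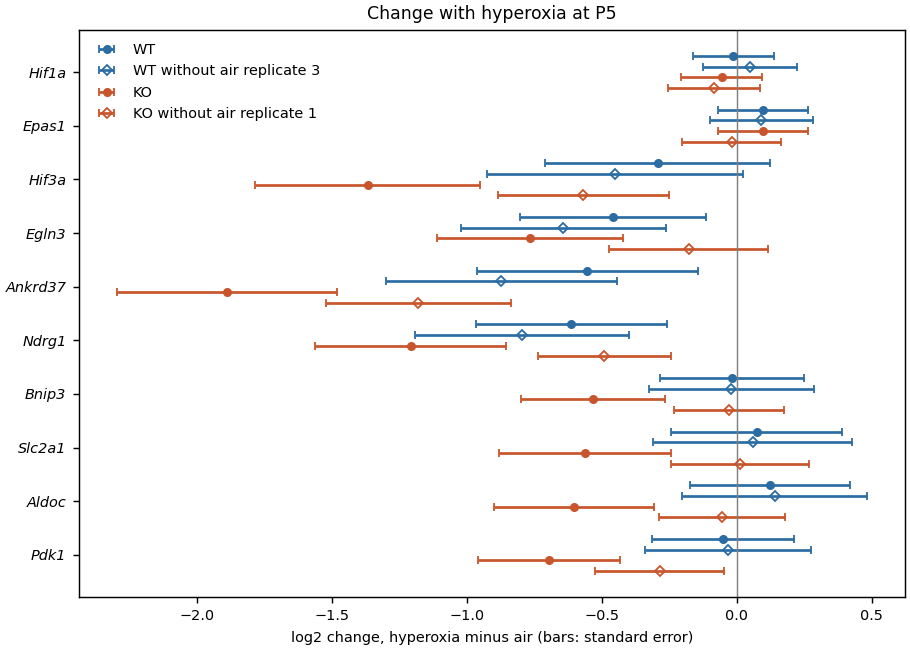
Log2 change from air to hyperoxia at P5 for the 10 genes, with bars of 1 SE, in WT lungs with and without air replicate 3 and in KO lungs with and without air replicate 1. The WT fit without air replicate 3 also left out KO P5 hyperoxia replicate 1, which bears on its SE bars but not on its changes. Ankrd37 lies lowest in KO lungs, at -1.89 with all arrays and -1.18 without air replicate 1, and Ndrg1 lies at -0.61 and -0.80 in WT lungs; Hif1a and Epas1 are near 0 throughout.

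The hyperoxia change did not differ detectably between genotypes in any of the 10 genes (0.150% of all genes were called). On simulated data this test recovered 23.9% of differences of 1 on the log2 scale, so differences of that size could be missed. For Ankrd37 the KO change minus the WT change was -1.34 (SE 0.58, 95% interval -2.52 to -0.15, limma adjusted p = 0.99999), and for Hif3a -1.08 (SE 0.59). Without KO P5 air replicate 1 these were -0.63 and -0.28, and the median over the 10 genes went from -0.62 to -0.09. The comparisons of hyperoxia with air and of KO with WT share their air arrays.

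Between genotypes at P5, none of the 10 genes was called in air, where 0.0375% of all genes were, or in hyperoxia, where 0.187% were. In air Ankrd37 was higher in each KO array (1689, 467 and 286) than in each WT array (261, 269 and 124), the only gene of the 10 without overlap, beside 17.8% of all genes. Its change was 1.46 (SE 0.41, limma adjusted p = 0.467), and 0.75 without KO P5 air replicate 1. In hyperoxia the KO arrays of Slc2a1 (719, 874 and 842) lay below the WT arrays (984, 1051 and 1048), as did those of Pdk1, beside 18.5% of all genes without overlap. Their changes were -0.33 (SE 0.32) and -0.23 (SE 0.26).

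From P5 to P56, 2 of the 10 genes fell in WT lungs kept in air, beside 22.9% of all genes called (10.8% lower). Egln3 read 76.0, 77.2 and 110 at P56 against 340, 316 and 214 at P5. The ages were apart, with a log2 change of -1.46 (SE 0.35, limma adjusted p = 0.00260). Hif1a, at 4491, 4630 and 4089 against 5446.5, 5816 and 6395, changed by -0.42 (SE 0.15, limma adjusted p = 0.0467). That adjusted p is close to the threshold, and 13 of 19 alternatives ended the call (adjusted p of 1.02e-05 to 0.300 over the 19). Hif3a (-0.96, SE 0.42) did not pass (limma adjusted p = 0.0990). It, Egln3 and Hif1a were without overlap on the low side, and Aldoc and Bnip3 on the high side, beside 54.2% of all genes.

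In KO lungs 3 of the 10 genes were called over the same interval, beside 29.6% of all genes (15.2% higher, 14.3% lower). Hif3a changed by -2.38 (SE 0.42), Egln3 by -2.25 (SE 0.35) and Epas1 by 0.67 (SE 0.17, limma adjusted p = 0.00325). Without KO P5 air replicate 1, Hif3a changed by -1.58, Egln3 by -1.66 and Epas1 by 0.55 (limma adjusted p = 0.0268, in a range of 3.31e-06 to 0.170 over 18 alternatives). Bnip3 (0.83, SE 0.21) and Slc2a1 (0.88, SE 0.26) were then called as well, which made 5. For Bnip3 the P56 arrays read 3829, 3263 and 3801, against 2202 and 1859 on the 2 remaining P5 arrays. Cell type markers moved over the same interval in KO lungs with all arrays: 3 of 7 tested alveolar type 1, 3 of 7 type 2, 3 of 7 leukocyte and 2 of 5 brown fat markers rose, and 7 of 7 tested mitosis markers fell. The level of the brown fat markers went from -0.83 to -0.21 among the P5 arrays to 0.31 to 1.97 among the P56 arrays (summed signals of 725 to 1749 and 3660 to 5615), with 3 of the 5 below the median of all values on every P5 array. The level of the mitosis markers was 0.23 to 1.08 at P5 and -1.45 to -1.21 at P56, with summed signals of 5193 to 9398 and 1309 to 1609. Their part in these changes was not tested.

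Adult lungs that had been exposed to hyperoxia as newborns showed no called difference from those kept in air in any of the 10 genes, and no gene of the array was called in either genotype (0.00%; limma, 681 genes in WT and 360 in KO with an unadjusted p below 0.05). In WT lungs Slc2a1 read 1196, 2190 and 1372 after hyperoxia against 886, 1055 and 1052 in air, without overlap, and changed by 0.61 (SE 0.32, limma adjusted p = 0.805). Ndrg1 (0.41) and Egln3 (0.46) also did not overlap, beside 14.7% of all genes (7.73% higher). The highest Slc2a1 reading was that of replicate 2, an array with a high 3′ to 5′ ratio. Without it the change was 0.36, and the median over the 10 genes went from 0.22 to 0.08. In KO lungs only Aldoc was without overlap (459, 414 and 409 against 282, 220 and 332), beside 15.7% of all genes, with a change of 0.59 (SE 0.30).

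Between genotypes at P56, none of the 10 genes was called in air, where 0.0749% of all genes were, or after hyperoxia, where 0.0375% were. In air 4 of the 10 genes were higher in all KO than in all WT arrays (Epas1, Slc2a1, Ankrd37 and Bnip3), beside 34.5% of all genes without overlap (17.9% higher). Epas1 read 22827, 25367 and 23452 in KO and 18629, 16911 and 19272 in WT lungs, a log2 change of 0.39 (SE 0.17, limma adjusted p = 0.349), and its sign turned under quantile normalization (-0.11). Slc2a1 read 1710, 1319 and 1478 against 886, 1055 and 1052 and changed by 0.57 (SE 0.32). The 3′ to 5′ ratio was also higher on every KO than on every WT array in air (0.68 to 1.05 against 0.21 to 0.36). After hyperoxia Egln3 was lower in each KO array, at values near the median of all values, and changed by -0.48 (SE 0.35), the only gene without overlap beside 16.8% of all genes. The genotypes did not differ detectably in their P56 hyperoxia change (no member and 0.00% of all genes called; limma, 328 genes with an unadjusted p below 0.05).

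Other genes of the pathway were taken from 3 lists. Their changes are given with all arrays only, KO P5 air replicate 1 and KO E19 replicate 1 included. Of 15 partners and regulators of HIF, all tested, 1 rose and 2 fell from E19 to P5 in WT lungs, with a median change of -0.05, beside 14.6% of all genes called. Arnt, the constant partner, rose by 0.52 (SE 0.15, limma adjusted p = 0.0208), Cited2, which competes with HIF for its coactivators, changed by -0.87 (SE 0.24), and Egln2, another prolyl hydroxylase, by -0.76 (SE 0.26). In KO lungs Arnt2 rose (0.69) and Cited2 fell (-0.94), beside 3.45% of all genes called. Arnt2 was the 1 gene of this list that differed between embryos of the 2 genotypes, at -0.48 (limma adjusted p = 0.0423), where 15.2% of all genes were called.

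Of 18 genes of glycolysis and glucose handling, 16 were tested, and 8 fell and none rose from E19 to P5 in WT lungs, with a median change of -0.90, where 6.23% of all genes fell. Pfkl, the liver-type phosphofructokinase, changed by -1.56 (SE 0.46, limma adjusted p = 0.0217), Gbe1, a glycogen-branching enzyme, by -1.42 (SE 0.31), Pgam1 by -1.35 (SE 0.21) and Ldha, lactate dehydrogenase A, by -1.27 (SE 0.22, limma adjusted p = 0.000419). In KO lungs 5 fell, where 1.24% of all genes did, with a median of -0.60, led by Hk2 (-1.47), Gbe1 (-1.32), Pfkp (-0.98) and Ldha (-0.89). The level of the 16 tested genes was -0.40 to 0.37 among the KO P5 air arrays and -0.32 to -0.27 among the WT P5 air arrays. How far KO P5 air replicate 1 set the size of these KO changes was not tested. At E19 2 genes of this list were higher in KO lungs, Pfkp (1.03, SE 0.21, limma adjusted p = 0.00158) and Hk1 (0.63), where 6.95% of all genes were higher.

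**Figure D5:**
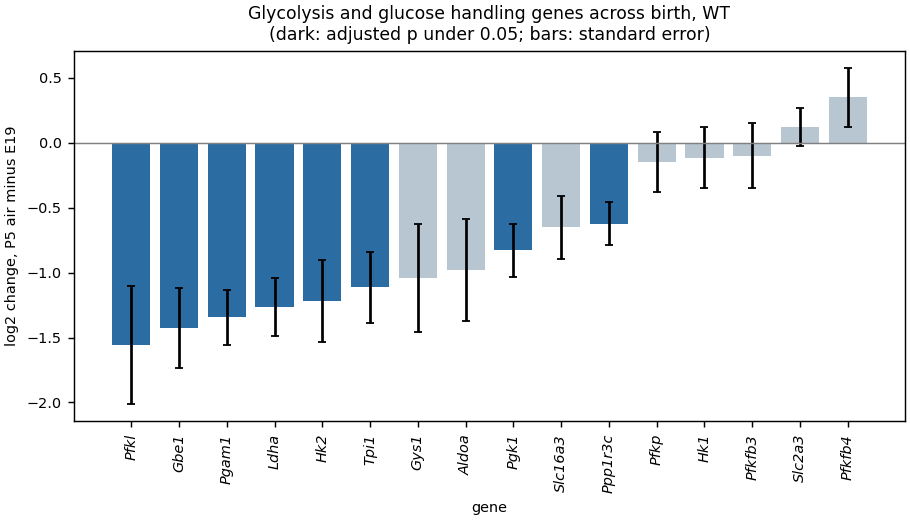
Columns show the log2 change from E19 to P5 in air in WT lungs for the 16 tested genes of glycolysis and glucose handling. Thin error bars are 1 SE, and dark columns are the 8 genes with a limma adjusted p below 0.05. The 8 called genes all lie below 0, from -0.62 (Ppp1r3c) to -1.56 (Pfkl).

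The list of 27 other HIF target genes, of which 24 were tested, was more mixed. In WT lungs 7 fell and 2 rose from E19 to P5, with a median of -0.28, beside 6.23% of all genes that fell and 8.36% that rose. Lox, the collagen cross-linking enzyme, changed by -1.65 (SE 0.25, limma adjusted p = 8.04e-05) and Ak4, a mitochondrial adenylate kinase, by -1.38, while Edn1, the vasoconstrictor endothelin, rose by 1.19 (SE 0.31, limma adjusted p = 0.0110) and Cxcr4, a chemokine receptor, by 1.14. In KO lungs 2 fell and 1 rose, beside 3.45% of all genes called. At E19, where 15.2% of all genes were called, Edn1 was higher in KO lungs (1.08), and Ero1a (0.57) was too, while Tfrc (-0.76) and Car9 (-0.62) were lower. None of the genes of the 3 lists was called in the hyperoxia comparisons or in the genotype comparisons after birth.

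Likeness of pattern was measured as the Pearson correlation of mean log2 levels over the 10 group means, which share arrays, normalization and the KO P5 air replicate 1 array, so it is a description. Among Hif3a and the 7 response genes the 28 pairs ran from 0.63 to 0.98 with a median of 0.91. Epas1 correlated with these 8 genes at -0.89 to -0.58, and Hif1a with the other 9 at -0.25 to 0.68. Over all tested genes, the nearest to Egln3 were Apool (0.991), Ak4 (0.988) and Desi2 (0.987), and the nearest to Hif3a were Zbtb8b (0.988), Slc47a1 (0.988) and Lox (0.986). Bnip3 and Slc2a1 were among each other's 3 nearest genes (0.977), and Ak4 and Lox were already in the list of other HIF targets. The nearest to Epas1 was Cd151 (0.989), to Ankrd37 Zfp654 (0.986), to Ndrg1 9130015G15Rik (0.985), to Pdk1 Rap1gap (0.985), to Aldoc Rprd1a (0.973) and to Hif1a Cachd1 (0.958).

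The 10 genes had 16 further probe sets above the filter. In the birth comparison 15 of these changed in the same direction as the probe set used in WT lungs and 16 in KO lungs. All 16 did in the KO hyperoxia comparison at P5. Ankrd37, the 1 gene called in that comparison, had no further probe set, so its call was not checked in this way. All arrays were used here, KO P5 air replicate 1 included. At E19, 12 of the 16 had the same direction between genotypes, and at P56 in air 7 of 16.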

How the data were processed

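The authors deposited 1 table of MAS5 signal intensity, a linear scale in which a probe set's brightness is summarised per array; MAS5 is named in the submitters' processing notes without a version, and other steps are not given in the sources used here. The trimmed mean of each array, without the 2% of values at each end, was 500.0, so the arrays had been scaled to a common level. Of 45101 probe sets, 34958 had 1 gene symbol in the platform annotation, 932 had several and 9211 none.

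Signals were taken to log2 after adding 26.3, the 25th percentile of all values, so fold changes of low genes are understated. Probe sets were kept where 3 or more arrays exceeded 100.4, the median of all values (23428 with 1 symbol), and each gene was represented by its probe set with the highest mean, giving 13345 genes. A mean per group was fitted with limma 3.58.1 in R 4.3.3 (22 residual degrees of freedom, variance trend), for 16 comparisons; tests were two-sided, p-values were adjusted by Benjamini-Hochberg across the 13345 genes, and 0.05 was the threshold. A gene "rose" or "fell" where it passed. The fit was tested on simulated data for these genes, with changes of 0.5, 1 and 2 on the log2 scale. In the WT birth comparison it recovered 8.96%, 49.3% and 97.0% of these. For the birth difference between genotypes the shares were 0%, 31.3% and 81.8%. For hyperoxia at P5 they were 10.4%, 62.7% and 93.9% in WT and 5.97%, 61.2% and 90.9% in KO lungs. For the P5 hyperoxia difference between genotypes they were 0%, 23.9% and 80.3%.

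The labels give each array as a separate mouse; litters are not named. No scan date was used, and the number of arrays, not read depth, limits the precision. The 10 genes, the pathway lists and the marker lists were chosen with earlier results of these data known. From each pathway list, the called genes with the largest changes are named, up to 4 per list, or the 2 with the largest change where fewer were called. Replicate numbers were not used to pair the arrays in the main fit. Of 40 same-numbered pairs 10 had deviations correlated above 0.1 (r from -0.41 to 0.28). In 1 of 13 comparisons, KO against WT at P5 in hyperoxia, every pair was above 0.1 (0.25, 0.11 and 0.17). Promoters came from RefSeq; no protein sequences were used here. Alternatives were 2 filters, 2 offsets, quantile normalization, 2 centrings (1 of them, on the medians of the tested genes, chosen after seeing the data), every probe set, array weights, a fit of the compared groups alone, a fit without the variance trend, the replicate number as a block, and leaving out arrays. Ranges of adjusted p and counts of alternatives given for single genes leave out the centring on the medians of the tested genes.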

Additional observations from a re-analysis of the deposited data

Results flagged for a closer look

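Of 20 sets of 4 arrays examined (the 10 genes in each E19 group), 3 had an array farther from the rest than Dixon's 95% critical value for 4 samples, 0.829, allows; chance gives about 1 in 20. Hif1a read 10075 on KO E19 replicate 1 while the other 3 KO embryos read 6013 to 6340. Bnip3 read 11529 on WT E19 replicate 4, where the next highest embryo of the group read 7605. Egln3 read 2681 on KO E19 replicate 3, where the next highest read 1495. The change of Epas1 from E19 to P5 in air differed between genotypes by -1.04 on the log2 scale (KO minus WT, limma adjusted p = 0.0386), a call that ended under 13 of 27 alternatives.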

How the results depend on the processing

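Of 3300 member changes recomputed under the alternatives, 3191 kept their side of the threshold, 151 of them with the opposite sign while not called, 67 lost a call, 41 gained one, and 1 was called with its sign turned: Hif1a between genotypes at P56 after hyperoxia became 0.19 with array weights (limma adjusted p = 0.0143). All 9 calls of the WT birth comparison held under each alternative. The cause of the shifts in count was not tested. The KO birth comparison called 7 members, 0 with the compared groups alone, and 0 to 8 with 1 array left out. For P5 to P56 in WT (2 called), the count was 1 with no filter, with either centring, with every probe set, with no variance trend, with the replicate block (which also ended the Aldoc call in KO lungs at birth) and without the 2 arrays that stand apart at P5, 5 with the compared groups alone, 4 with array weights, and 1 without any 1 array. In KO (3 called) it was 6 with array weights, 5 without 3 arrays, and 3 to 5 with 1 left out. The birth difference between genotypes (1 called) lost its call with no filter, centring on array medians, every probe set, the compared groups alone, no variance trend, and without 2 or 3 arrays (0 each; 0 to 1 with 1 left out). The P5 hyperoxia change in KO (1 called) gave 0 with the stricter filter, 0 with the compared groups alone, 5 with array weights and 0 to 3 with 1 array left out; 3 of the WT members were called with array weights. At E19 (2 called) the counts were 0 with the compared groups alone, 1 with array weights and 1 to 2 with 1 left out. Comparisons with no member called gave, with array weights, 1 between genotypes at P5 in air, 1 in hyperoxia, 2 at P56 in air (2 also with the groups alone), 4 after hyperoxia, and 1 for the P56 hyperoxia change in KO. No other call of a member was changed by the block.

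Counts over all genes moved most with array weights (4740 called in the WT birth comparison, against 1946) and with the groups alone (40 at E19, against 2033). Of the genes called in the KO birth comparison 64.0% were higher, against 52.4%, 23.6% and 39.0% after quantile normalization and the 2 centrings. Egln3 at P56 was near the median of all values, so its differences there are the least certain.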
